A study of Homo sapiens with 2 samples.

Results

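The genes described here encode the general transcription machinery and Mediator: the subunits of RNA polymerases I, II and III, the general transcription factors of the TFII and TFIII classes, the TBP-associated factors (TAFs) and the Mediator subunits. A probe was a member if its gene symbol, updated to the current name, began with GTF2 or GTF3, TAF and a digit, POLR1, POLR2, POLR3, or MED and a digit. The rule used names only. It therefore also took in the TFII-I family genes GTF2I and GTF2IRD1 and the RNA-binding protein gene TAF15, which do not encode general factors. It found 83 genes on 86 probes, among 12445 named genes on 13395 probes. RefSeq lists 126 protein-coding genes that match the rule, and the other 43 of them, among them MED12, MED4, POLR2F and TAF13, were not analysed here. The annotation carried an older symbol for 20 of the 83 genes, so 19 of them, such as MED13 (listed as THRAP1), MED17 (CRSP6) and POLR1H (ZNRD1), were found only after updating.

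KYSE-170 cells, a human oesophageal squamous cell carcinoma line, were transfected with an oligoribonucleotide for miR-210 or with one called ncRNA, which served as the comparison arm. Each arm gave 1 sample and 1 Cy5-labelled array, so each value below is a single measurement and nothing was tested. The labels do not give the sequence of either oligoribonucleotide, the dose or the time after transfection.

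Transcription of protein-coding genes by RNA polymerase II begins with the assembly of general factors at the core promoter: TFIID, which holds TBP and the TAFs, TFIIA and TFIIB, the polymerase with TFIIF, and then TFIIE and TFIIH, whose helicase opens the DNA. Mediator is a large complex of head, middle and tail modules, with a kinase module that can dissociate, and it carries signals from DNA-bound activators to the polymerase. RNA polymerase I makes the large ribosomal RNA precursor with the help of the SL1 complex, and RNA polymerase III makes 5S RNA, transfer RNAs and other small RNAs with TFIIIA, TFIIIB and TFIIIC. In tumour cells, as in most dividing cells, the majority of these genes are expressed broadly.

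MicroRNAs act through pairing of their seed, bases 2 to 8, with target transcripts. The mature miR-210 strands in RefSeq (GRCh38.p14, MIR210 on the minus strand of chromosome 11) are given with the seed in capitals, since they are the agent whose arm is compared. The labels do not say which strand the oligoribonucleotide supplied.
hsa-miR-210-3p: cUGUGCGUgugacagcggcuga
hsa-miR-210-5p: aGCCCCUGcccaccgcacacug

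A feature of the members that the rule did not use lay in their promoters. RefSeq (GRCh38.p14) gave a promoter window, 250 bases before to 50 bases after the gene start, for 67 of the 83 members, and the first window listed for a gene was used. The ETS core, spelled CCGGAAG and read on both strands, occurred in 28 of the 67 windows (41.8%), against 19.0% of 5495 windows of the genes kept on level on this array and 14.2% of 15843 windows of protein-coding genes. Counting every window listed for a gene, the shares were 43.3%, 21.7% and 16.5% of the same genes. ETS factors such as GABPA are known to bind such sequences. Of the general factors, 11 of 16 windows held the motif, of the polymerase subunits 6 of 17, of the TAFs 5 of 17 and of Mediator 6 of 17. All 6 TFIIIA and TFIIIC genes on the array were among them. In the members the middle of the matches lay at a median of 22 bases before the start, and 24 of 37 matches lay within 50 bases of it (64.9%), against 55.7% of 2743 matches over all windows.

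The other motifs searched, on both strands, were nearer to their shares elsewhere. The GC box GGGCGG was found in 59.7% of member windows, against 68.9% of the genes kept and 58.5% of all. The CCAAT box, CCAAT, stood at 38.8% in members, against 37.7% of the genes kept and 36.4% of all. The TATA box TATAAA, which TBP binds, was in 5 member windows (7.46%), against 6.82% of the genes kept and 9.63% of all. The GC content had a median of 60.0% in member windows, against 65.0% in those of the genes kept and 62.7% in all. Letters at the ends of a GC box and an ETS core can be shared. A match describes the letters only.

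**Figure D1:**
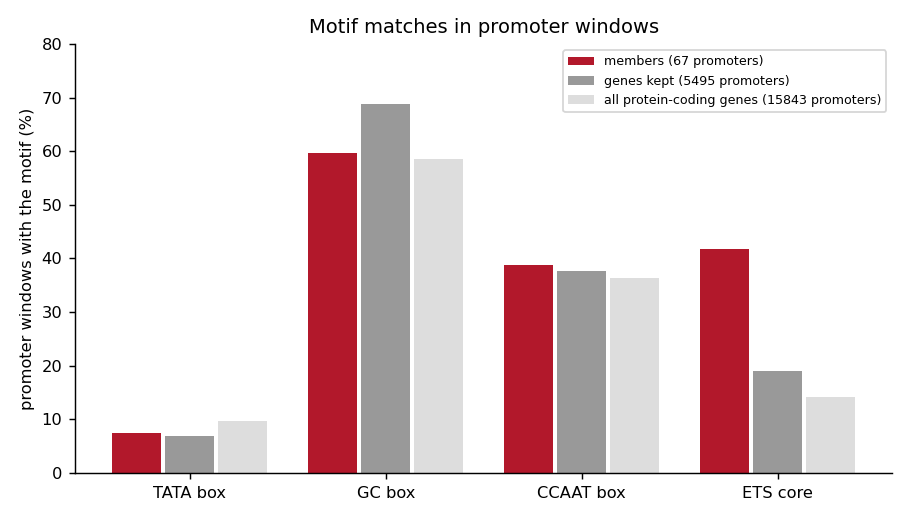
Share of promoter windows, in percent, that hold each of 4 motifs, for the members, the genes kept on level and all protein-coding genes. No error is drawn because every window used was counted. The windows are the first listed for each gene and cover 67 of the 83 members. The ETS core stands at 41.8% in the members, 19.0% in the genes kept and 14.2% in all protein-coding genes, while the bars of the other motifs lie closer together.

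The motif was more frequent in windows of members kept on level. It was in 26 of 53 of those (49.1%) and in 2 of 14 windows of members under the filter (14.3%), GTF2A1 and MED18. Among all named genes the same shares were 19.0% of the kept and 8.03% of the 4369 not kept. The members' log2 ratio, miR-210 over ncRNA, had a median of 0.004 in the 26 kept members with the motif and of 0.10 in the 27 without it, and the medians over all genes kept were 0.007 with it and 0.007 without it. The ranges between the quartiles of the members overlapped, from -0.46 to 0.33 with the motif and from -0.23 to 0.35 without it.

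The 100 bases before the start are shown for 7 members that the results below turn on, with matches of the 4 motifs in capitals. They were picked because these genes lay among those farthest apart between the arrays and because their promoters differ in these elements. MED19, at -0.95, was farther apart than POLR2C but is not shown. Its stretch holds CCAAT and GC boxes and no ETS core. The stretches of GTF2H3, GTF3C1, TAF3 and TAF5, also not shown, have no ETS core either, so the choice favours that motif. The ETS core of MED29 lies in its window outside the stretch shown.
TAF11, chr6:34888043-34888142, minus strand: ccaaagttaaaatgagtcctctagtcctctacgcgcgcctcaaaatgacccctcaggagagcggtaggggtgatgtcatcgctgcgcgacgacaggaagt
TAF12, chr1:28643068-28643167, minus strand: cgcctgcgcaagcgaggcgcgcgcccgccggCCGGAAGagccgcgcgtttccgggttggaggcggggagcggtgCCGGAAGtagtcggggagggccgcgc
TAF9, chr5:69369825-69369924, minus strand: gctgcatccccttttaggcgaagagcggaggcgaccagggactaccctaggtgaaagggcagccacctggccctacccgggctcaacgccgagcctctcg
MED29, chr19:39391278-39391377, plus strand: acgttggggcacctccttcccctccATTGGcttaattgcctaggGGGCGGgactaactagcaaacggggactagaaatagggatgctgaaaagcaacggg
POLR2C, chr16:57462579-57462678, plus strand: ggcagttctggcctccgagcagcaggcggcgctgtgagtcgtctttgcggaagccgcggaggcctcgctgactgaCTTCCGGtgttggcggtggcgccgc
POLR3A, chr10:78029516-78029615, minus strand: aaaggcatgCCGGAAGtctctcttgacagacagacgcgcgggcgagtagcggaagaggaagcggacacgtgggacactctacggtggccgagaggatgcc
GTF2B, chr1:88891568-88891667, minus strand: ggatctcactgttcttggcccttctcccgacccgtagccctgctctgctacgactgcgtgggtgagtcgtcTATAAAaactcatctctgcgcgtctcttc
In the spelling searched, TAF12 has 2 ETS cores in this stretch and POLR2C and POLR3A have 1 each. GTF2B has a TATA box and no ETS core so spelled. MED29 has a CCAAT box and a GC box. TAF11, the kept member with the highest log2 ratio, and TAF9, whose 2 probes disagree, have none of the 4 motifs as spelled here. Partial matches to the ETS core were not counted, such as caggaagt at the end of the TAF11 stretch and gcggaag in those of POLR2C and POLR3A. Other spellings of an ETS site were not searched.

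Values are intensities as deposited, on a linear scale. Over 24267 probes the median was 36 with miR-210 and 39 with ncRNA. Log2 ratios are miR-210 minus ncRNA after quantile normalization of the 24177 probes above 0 on both arrays, so they differ slightly from the plain quotient of the intensities; without this step the median gene stood at -0.12 in place of 0.01. Genes were kept if their mean log2 level over both arrays was at or above that of the median probe (intensity 37.5), which left 6684. The only error available is the SD of 0.44 that a probe's log2 ratio had around its gene, from 251 genes with 2 or more kept probes; it says nothing of how far separate cultures or repeated arrays would differ. Intensities of different probes are not compared with each other. Of 3 reported miR-210 targets, FGFRL1 read 21 on the miR-210 array and 277 on the ncRNA array. It passed the filter with its miR-210 value under the limit, so the size of its ratio is uncertain. GPD1L read 177 with miR-210 and 449 with ncRNA (2.32-fold lower). ISCU read 192 with miR-210 and 281 with ncRNA, within the spread between probes at -0.43. Squamous epithelial markers reached 7094 on the miR-210 array and 12693 on the ncRNA array, with SFN, KRT17, KRT15, KRT5 and KRT14 well over the array medians; DSG3, DSC3 and PKP1 lay nearer to them, at 76, 52 and 49 with miR-210 and 72, 40 and 30 with ncRNA, and TP63 was under the filter at 22 with miR-210 and 57 with ncRNA. Of 12 markers of fibroblasts, endothelium, leukocytes and liver, 3 passed the filter (CD79A, DCN and VWF) and none exceeded 181 on the miR-210 array or 183 on the ncRNA array.

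The level filter kept 64 of the 83 members; GTF3C1 passed it with its miR-210 value under the limit and GTF3C6 with its ncRNA value under it. Of these, 1 was at least 2-fold higher with miR-210 and 2 at least 2-fold lower, together 4.69%, where 6.21% of all genes kept were that far apart (3.02% higher, 3.19% lower). At 1.5-fold the counts were 6 higher and 7 lower, or 20.3% of the members against 22.7% of all genes. The members' median log2 ratio was 0.03, against 0.01 over all genes kept, with 34 above 0 (50.2% of all genes lay above 0) and 29 under it. Their SD of 0.53 was close to the SD of 0.54 over all genes kept, and 41 of 64 lay within 0.44 of 0 (64.1%, against 65.2% of all genes). The general transcription machinery as a whole therefore had counts near the background, and the values below describe single genes.

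**Figure D2:**
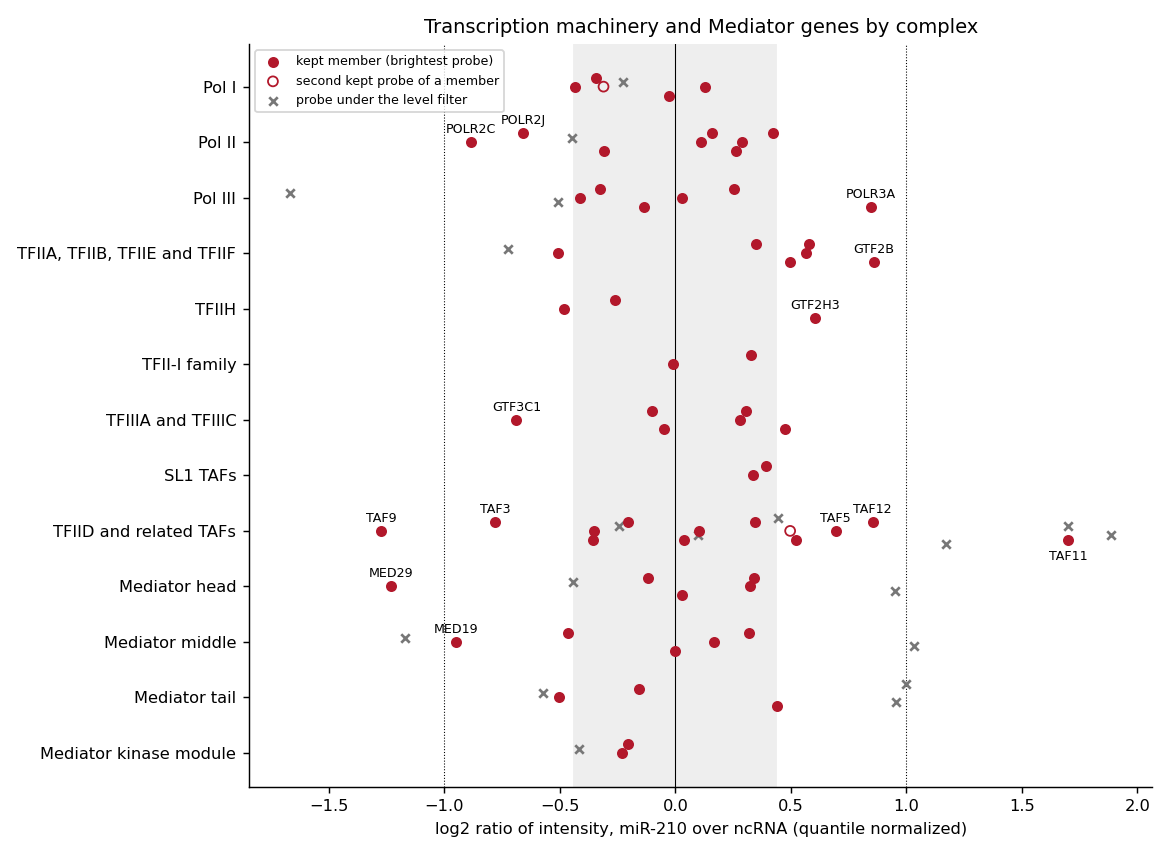
Log2 ratio (miR-210 over ncRNA) for each member, in a row per complex. Filled points are kept members at their brightest probe, open points second kept probes and crosses probes under the level filter; the grey band reaches 0.44 to either side of 0, the spread between probes of a gene, and dotted lines mark 2-fold. TAF11 lies beyond 2-fold on the higher side, TAF9 and MED29 on the lower side, and TFIIA, TFIIB, TFIIE and TFIIF have 5 of 6 kept genes to the right of 0.

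RNA polymerase II subunits ranged from -0.89 to 0.42 over 8 kept genes. POLR2A, the largest subunit, which carries the catalytic centre and the C-terminal heptad repeats, read 2937 on the miR-210 array and 2500 on the ncRNA array, a log2 ratio of 0.42. POLR2B, the second largest subunit, read 713 with miR-210 and 637 with ncRNA (0.29). Both lay within the spread between probes. POLR2C, which takes part in assembly of the enzyme, read 209 with miR-210 and 418 with ncRNA, 1.85-fold lower. POLR2J read 585 with miR-210 and 1012 with ncRNA, 1.58-fold lower. The products of POLR2C and POLR2J are known to bind each other and form the assembly platform of the enzyme; they were the 2 Pol II genes past 1.5-fold, and this pairing was picked out after their values were seen. A second POLR2J probe, under the level filter, read 28 with miR-210 and 41 with ncRNA (-0.45). POLR2J has near-identical copies, POLR2J2 and POLR2J3, and the annotated span of POLR2C overlaps that of DOK4, whose probe read 62 with miR-210 and 53 with ncRNA, so the source of these probes' signal is uncertain. POLR2E and POLR2H, which all 3 polymerases share, stood at 0.11 and 0.16, POLR2I at 0.26 and the stalk subunit POLR2D at -0.31.

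RNA polymerase I had 4 kept genes, none past 1.5-fold. POLR1D, a small subunit shared with polymerase III, had both of its probes kept. They read 1358 and 152 with miR-210, against 2063 and 204 with ncRNA, so both were lower, with log2 ratios of -0.43 and -0.31. POLR1C, its partner in both enzymes and the counterpart of POLR2C, read 325 with miR-210 and 358 with ncRNA (-0.03). POLR1B, the second largest subunit, read 340 with miR-210 and 336 with ncRNA (0.13). POLR1H, a small zinc-binding subunit, stood at -0.34, and POLR1A, the largest subunit, was under the filter at 31 with miR-210 and 39 with ncRNA.

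RNA polymerase III had 6 kept genes, 3 above 0 and 3 under it. POLR3A, the largest and catalytic subunit, read 95 with miR-210 and 57 with ncRNA, 1.8-fold higher. POLR3B, the second largest, read 262 with miR-210 and 238 with ncRNA (0.25). The subunits of the initiation subcomplex were near or under 0: POLR3C at -0.41, POLR3F at -0.14 and POLR3G at 0.03. POLR3K, which takes part in termination, read 516 with miR-210 and 696 with ncRNA (-0.33). POLR3D and POLR3E did not reach the filter. POLR3D read 14 with miR-210 and 46 with ncRNA, 3.18-fold lower, but its miR-210 value lay under the 25th percentile of that array, 17.

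Of the 6 kept genes of TFIIA, TFIIB, TFIIE and TFIIF, 5 were above 0, where 50.2% of all genes kept were, with a median of 0.53 against 0.01 over all genes. Of the 6, 4 were higher and 1 lower by more than the spread between probes, and 1 was within it, where 65.2% of all genes were. These are counts over a few genes on single arrays, and no direction of the group was tested. GTF2B, which is TFIIB and positions the polymerase at the start site, read 582 with miR-210 and 345 with ncRNA, 1.81-fold higher. GTF2E2, a TFIIE subunit, read 405 with miR-210 and 298 with ncRNA (0.58). GTF2F2, the smaller TFIIF subunit, read 1175 with miR-210 and 889 with ncRNA (0.57). GTF2A2, the small TFIIA subunit, read 1795 with miR-210 and 1435 with ncRNA (0.50), and GTF2E1, the other TFIIE subunit, stood at 0.35. GTF2F1, the larger TFIIF subunit and partner of GTF2F2, went the other way with 76 on the miR-210 array and 117 on the ncRNA array (-0.51). GTF2A1, the large TFIIA subunit, was under the filter at 13 with miR-210 and 22 with ncRNA. The median of these 6 genes was 0.36 on the deposited scale and between 0.49 and 0.57 under the other settings, where the number of kept genes could differ.

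TFIIH, needed for promoter opening and for nucleotide excision repair, had 3 kept core subunits. GTF2H3 read 123 with miR-210 and 87 with ncRNA, 1.52-fold higher. GTF2H1 read 136 with miR-210 and 206 with ncRNA (-0.48), and GTF2H4 stood at -0.26. The 3 subunits of 1 complex therefore did not share a direction. GTF2I and GTF2IRD1, of the TFII-I family, stood at 0.33 and -0.01.

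For polymerase III factors, GTF3A, the zinc finger factor TFIIIA of the 5S genes, read 2283 with miR-210 and 2746 with ncRNA (-0.10). GTF3C1, the largest TFIIIC subunit, read 35 with miR-210 and 60 with ncRNA, 1.61-fold lower, with the miR-210 value under the array median. The other TFIIIC subunits lay between -0.05 for GTF3C4 and 0.48 for GTF3C6, with GTF3C2 and GTF3C3 at 0.30 and 0.28. The SL1 subunits TAF1A and TAF1B, which serve polymerase I, stood at 0.39 and 0.34.

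The TAFs of TFIID and related complexes held the widest spread of any list here, with an SD of 0.79 over 12 kept genes. This SD takes TAF9 at its brighter probe (-1.27), though its 2 kept probes disagree. The other extreme is TAF11 (1.70). TAF11, a histone-fold subunit that pairs with TAF13, read 145 on the miR-210 array and 48 on the ncRNA array. This was 3.25-fold higher, rank 6661 from the lowest of 6684 genes. It has 1 probe, and its annotated span overlaps that of BLTP3A, whose own probe read 26 on both arrays. TAF12, a histone-fold partner of TAF4, read 167 with miR-210 and 100 with ncRNA, 1.81-fold higher. TAF5, a WD40-repeat scaffold subunit, read 114 with miR-210 and 76 with ncRNA, 1.62-fold higher; its span overlaps that of ATP5MK, whose probe read 3771 with miR-210 and 4217 with ncRNA.

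TAF9, the histone-fold partner of TAF6, gave opposite answers on its 2 kept probes. The brighter probe read 691 with miR-210 and 1868 with ncRNA, 2.41-fold lower and rank 104 from the lowest. The other probe read 762 with miR-210 and 586 with ncRNA, 1.41-fold higher, and the mean of both was -0.39. Its annotated span overlaps those of AK6 and RAD17, and it has the paralogue TAF9B, so which transcript each probe reads was not tested. RAD17 read 338 with miR-210 and 347 with ncRNA, and TAF9B read 226 with miR-210 and 315 with ncRNA (-0.35). The direction of TAF9 is therefore unsettled in these data.

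TAF3, whose PHD finger binds trimethylated histone H3 at active promoters, read 71 with miR-210 and 131 with ncRNA, 1.72-fold lower. TAF2 stood at -0.36 and TAF10, which is shared with the SAGA coactivator, at -0.20. TAF1, the largest subunit, read 38 with miR-210 and 40 with ncRNA (0.04), and TAF7, which binds TAF1, read 1453 with miR-210 and 1521 with ncRNA (0.10). TAF15, an RNA-binding protein of the FET family, stood at 0.52 and TAF4B, a paralogue of TAF4, at 0.34.

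**Figure D3:**
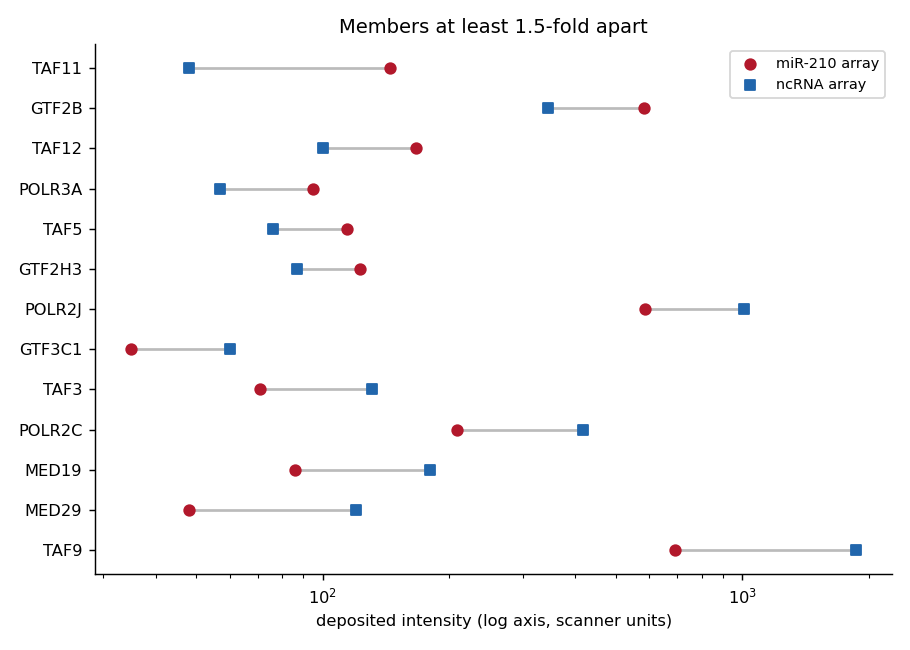
Deposited intensity on a log axis of the 13 kept members at least 1.5-fold apart, on the miR-210 array (circles) and the ncRNA array (squares), 1 array per arm; TAF9 is drawn at its brighter probe. TAF11 shows the longest gap among the 6 genes higher with miR-210 (145 against 48), and TAF9 the longest among the 7 lower ones (691 against 1868).

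Mediator had 15 kept genes of 23 on the array, 6 above 0, 8 under it and MED9 at 0, with a median of -0.12 (50.2% of all genes kept were above 0). None was at least 1.5-fold higher and 2 were at least 1.5-fold lower, against 11.9% and 10.8% of all genes kept, so the 15 genes are too few to set them apart from the background. MED29, a subunit found in metazoan Mediator, read 48 on the miR-210 array and 120 on the ncRNA array, 2.34-fold lower and rank 114 from the lowest. MED19 read 86 with miR-210 and 180 with ncRNA, 1.93-fold lower, just inside the 2-fold limit. These were the 2 Mediator genes past 1.5-fold, and each rests on 1 probe. MED29 was listed here under the head, though the module given for MED14 and for MED26 to MED30 varies between sources. The other kept genes listed under the head lay within the spread between probes. MED8 stood at 0.34, MED27 at 0.32, MED30 at 0.03 and MED17, a scaffold of the head, at -0.12.

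In the middle module MED21 read 278 with miR-210 and 419 with ncRNA (-0.46), MED31 read 309 with miR-210 and 268 with ncRNA (0.32), and MED7, the partner of MED21, stood at 0.17. MED9 read 154 with miR-210 and 167 with ncRNA. In the tail, MED15, which activators such as SREBPs contact, read 68 with miR-210 and 104 with ncRNA (-0.50), MED24 read 66 with miR-210 and 52 with ncRNA (0.44) and MED23 stood at -0.16. The kinase module paralogues MED13 and MED13L read 193 and 95 with miR-210, against 244 and 118 with ncRNA. Both were lower but within the spread between probes (-0.23 and -0.20). The Mediator median was -0.24 on the deposited scale, 0.01 under the stricter level filter (the 75th percentile) and 0.16 with the platform's own symbols, so it has no settled sign.

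**Figure D4:**
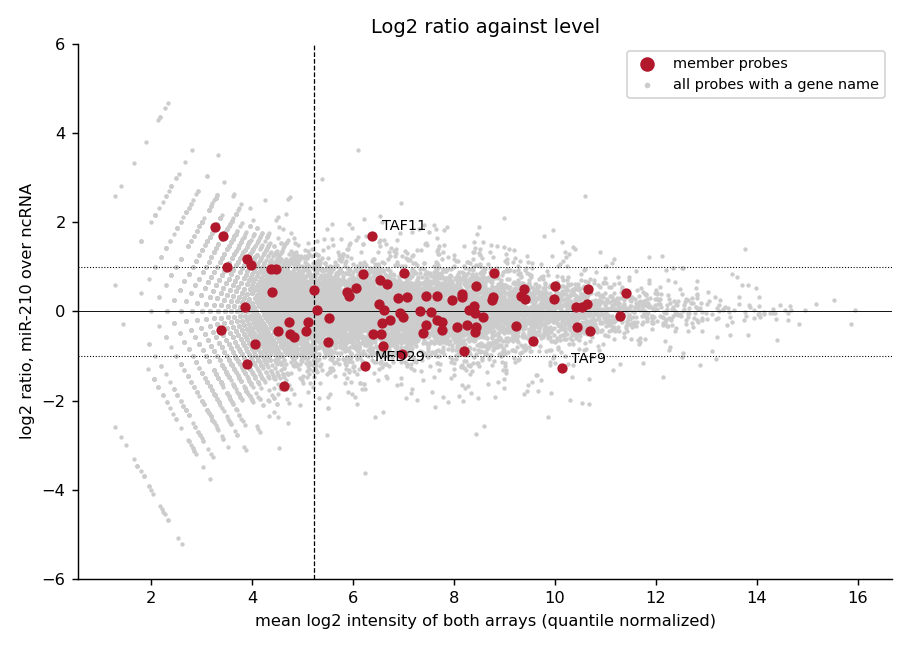
Log2 ratio of miR-210 over ncRNA against the mean log2 intensity of both arrays, with member probes over all probes that have a gene name; the dashed line is the level filter and dotted lines mark 2-fold. Scatter widens to the left of the filter, where 7 member genes lie at or beyond 2-fold, and of those to its right only TAF11, TAF9 and MED29 do.

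Of the 19 members not kept, TAF6L read -5 on the miR-210 array and 18 on the ncRNA array and has no log2 ratio. The other 18 had values of at most 46 on either array. Among them 5 were at least 2-fold higher with miR-210 and 2 at least 2-fold lower. TAF4, TAF1L, TAF5L, MED26 and MED14, the backbone of Mediator, read 18, 19, 22, 22 and 16 with miR-210, against 5, 6, 10, 11 and 8 with ncRNA. MED1, the subunit that contacts nuclear receptors, read 10 with miR-210 and 23 with ncRNA. With no filter 10 of 82 members were at least 2-fold apart (12.2%), against 14% of all 12405 genes so measured. At these intensities a few units make 2-fold, and no direction is read from them.

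Among 72 other genes of transcription outside the member rule, 49 were on the array and 42 were kept, with a median of -0.05. Of the 42, 17 were above 0 (40.5%, against 50.2% of all genes kept). At 2-fold 1 was higher and 1 lower, where 3.02% and 3.19% of all genes were. At 1.5-fold 3 were higher and 3 lower, where 11.9% and 10.8% of all genes were. Within the spread between probes lay 34 (81.0%, against 65.2% of all genes), so the genes named next are the exceptions. TFB1M, a mitochondrial ribosomal RNA methyltransferase related to TFB2M, was at least 2-fold higher, reading 381 with miR-210 and 190 with ncRNA (2.17-fold). SUPT20H, a subunit of SAGA, was the 1 at least 2-fold lower, reading 168 with miR-210 and 573 with ncRNA (3.18-fold). A second SUPT20H probe, under the level filter, read 17 with miR-210 and 26 with ncRNA (-0.58). USP22, the SAGA deubiquitinase, read 254 with miR-210 and 498 with ncRNA, 1.82-fold lower. BDP1, a TFIIIB subunit, read 37 with miR-210 and 77 with ncRNA, 1.92-fold lower. CCNT2, a cyclin of the elongation factor P-TEFb, and ELL, an elongation factor, were 1.56-fold and 1.51-fold higher (64 and 53 with miR-210, 44 and 38 with ncRNA). TBP itself read 151 with miR-210 and 175 with ncRNA (-0.10). The other SAGA genes among the 42 lay within the spread between probes. SUPT3H stood at 0.38, TADA3 at 0.00, KAT2B at -0.13 and KAT2A at -0.19. SAGA also holds TAFs that are members and are not counted here. Of those kept, TAF10 stood at -0.20, TAF12 at 0.85 and TAF9 at -1.27 and 0.50 on its 2 probes.

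The 13 members past 1.5-fold had the same sign in each setting that gave a value for them. They were chosen for size on the same 2 arrays that each setting reuses. A constant sign was therefore largely set by the choice. The stricter level filter kept only GTF2B, POLR2C, POLR2J and TAF9 of them, and single genes were not recomputed with the platform's own symbols. TAF11 ranged from 1.06 with an offset of 50 to 1.70, and was past 2-fold in all 7 settings that kept it, the reported one included. MED29 ranged from -1.32 to -0.74 and was past 2-fold in 6 of 7, the exception being the offset of 50. TAF9 ranged from -1.43 to -0.39, the last value being the mean of its 2 probes. No setting used its second kept probe alone, which stood at 0.50, so the constant sign does not settle the direction of TAF9. POLR2C and MED19 reached 2-fold on the deposited scale, at -1.0 and -1.07.

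**Figure D5:**
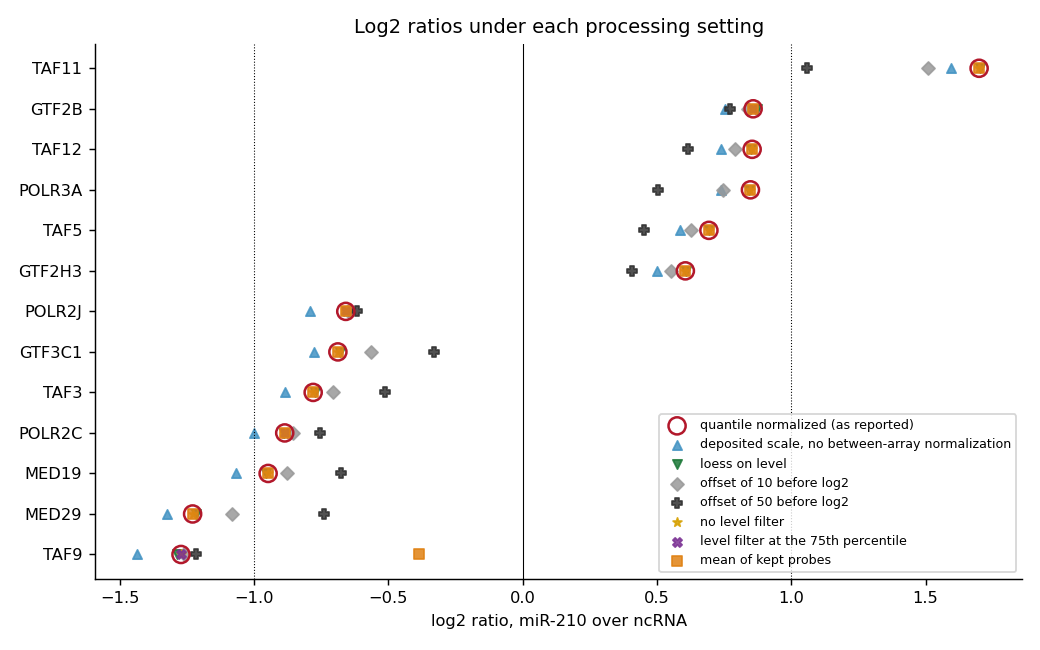
Log2 ratio of miR-210 over ncRNA for the 13 members past 1.5-fold under each processing setting, with open circles for the values reported and dotted lines at 2-fold. The points drawn for each gene stay on one side of 0, which choosing the genes by size on these arrays favours. The second kept TAF9 probe (0.50) is not drawn alone. The widest moves are those of TAF9 with the mean of its probes (-0.39) and TAF11 with an offset of 50 (1.06).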

How the data were processed

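Total RNA (500 ng per sample, per the labels) was copied into aminoallyl-cRNA, labelled with Cy5 and run on 1 Toray oligonucleotide array per arm, in 1 colour. The authors deposited probe intensity values on a linear scale, as read from the values: whole numbers, some under 0, with a top near the 16-bit scanner limit. The sources used here do not give the scanner, background correction or normalization, nor a genome build for the array. The number of arrays limits the precision.

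Groups came from the sample titles. Symbols came from the platform annotation and were updated through unambiguous synonyms in the RefSeq table of GRCh38.p14. Probes above 0 on both arrays were log2 transformed and quantile normalized, and those with a mean level at or over the median were kept; a gene took its brightest kept probe. With 1 array per group no test was run. Text names members at least 1.5-fold apart, the extremes of each complex, members with 2 probes, those near 2-fold and other transcription genes past 1.5-fold. Motif letters were matched in RefSeq promoter windows; the first window listed for each protein-coding gene was used, with any window as an alternative chosen after seeing the data. Alternatives were no normalization, loess on level (span 0.3), offsets of 10 and 50, no or a stricter filter, the mean of probes and symbols not updated. Members, lists and motifs were chosen with earlier results of these data known. Recovery of known log2 ratios after normalization was tested on simulated data, with changes placed only in probes of higher level. That test took medians over many probes and did not check single genes, probe choice or the spread between probes. Software was Python 3.11.15, numpy 2.4.6, pandas 2.3.3 and statsmodels 0.14.6.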

Additional observations from a re-analysis of the deposited data

How the results depend on the processing

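The count of 3 members at least 2-fold apart became 5 on the deposited scale, where POLR2C and MED19 joined, 10 with no level filter, 2 with an offset of 50, with the mean of probes or with symbols not updated, and 1 under the stricter filter (75th percentile), which left 39 members; neither TAF11 nor MED29 was among them. The members' median of 0.03 was -0.081 on the deposited scale, where all genes moved to -0.12, and 0.11 with symbols not updated, which left 51 members; it lay between 0.02 and 0.03 otherwise. The 2 other transcription genes at least 2-fold apart became 1 with an offset of 50, 1 with symbols not updated, where 32 such genes were kept, and 3 on the deposited scale or with no filter. Of 82 values of single members under the alternatives, 79 moved by less than the spread between probes, and the exceptions were TAF11 and MED29 with an offset of 50 (1.06 and -0.74) and TAF9 as a mean of probes (-0.39). No paired analysis was possible because each arm had 1 array. Differences between cultures, RNA preparations and arrays were not measured, and for members with an intensity near the array median the ratio depends on the offset; the cause of these moves was not tested.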
